A study of Homo sapiens with 18 samples.

Results

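RNA polymerase II (Pol II) phosphorylated at tyrosine 1 of its C-terminal domain (Tyr1P) was mapped by chromatin immunoprecipitation and sequencing in 4 libraries, 2 with IAA and 2 Control, of the 18 libraries in the series. The 4 were chosen by their labels, as all numbered libraries made with the Tyr1P antibody. All came from HCT116, a human colon cancer line, whose INTS11 bears an auxin-inducible degron (INTS11-AID), so the Control cells have the tag as well. IAA is auxin, which sends a degron-tagged protein to the proteasome. Per the protocols in the labels, a single text shared by all samples, cells stood in serum-free medium for 14 h and IAA was used at 500 µM for 1 h. That text also names EGF and interferon beta and does not say which library received what, so the groups are those in the titles. Nothing in the labels says whether replicates were separate cultures, so the spread between them may be technical. The degron acts on protein, and no value below measures the loss of INTS11.

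The C-terminal domain of the largest Pol II subunit is a tail of repeated heptads whose residues are phosphorylated and dephosphorylated as transcription proceeds. In mammalian cells Tyr1P is known from the starts of genes, where it marks polymerase close to the promoter and antisense to it, and from enhancers. INTS11 is the endonuclease of Integrator, a complex that cleaves the 3′ ends of small nuclear RNAs (snRNAs) and cuts nascent RNA of polymerase paused near gene starts.

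A site was a stretch covered by a peak in any of the 4 Tyr1P libraries, with peaks that shared at least 1 bp merged. A gained site held a peak in both IAA libraries and in neither Control library, and a lost site the reverse. Sites were classed by their summit as edge (no more than 1 kb from the start or end of a protein-coding gene), interior (more than 1 kb inside both ends), flank (up to 5 kb outside a gene) or elsewhere. With IAA, Tyr1P sites were gained at 1590 places and lost at 5631, and 21683 stayed in all 4 libraries. The share of sites gained was highest 1 to 5 kb upstream of gene starts and beside snRNA genes. Losses were spread over weak sites inside genes and far from them, and at starts the median summit position lay farther downstream with IAA.

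The 300 bases around 5 starts show the kinds of promoter involved. SSH1 (a phosphatase that activates cofilin), LEKR1 and S100A14 (an S100 protein of epithelia) lost the Tyr1P site at their start. TMUB1 gained one there, and DDX3X (an RNA helicase) kept its start site and gained another upstream. The 5 were picked after their values were seen. Each runs 5′ to 3′ from 250 bases before to 50 bases after the listed start, with each C followed by G in capitals together with that G. The sequences are from RefSeq on GRCh38.p14.
SSH1: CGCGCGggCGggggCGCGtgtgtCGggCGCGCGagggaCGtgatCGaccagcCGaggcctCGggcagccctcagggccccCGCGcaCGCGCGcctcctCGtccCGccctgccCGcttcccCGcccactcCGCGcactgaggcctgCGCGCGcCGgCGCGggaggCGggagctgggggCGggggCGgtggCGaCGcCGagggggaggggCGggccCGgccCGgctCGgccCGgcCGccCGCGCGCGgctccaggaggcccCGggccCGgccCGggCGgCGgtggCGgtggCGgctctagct
LEKR1: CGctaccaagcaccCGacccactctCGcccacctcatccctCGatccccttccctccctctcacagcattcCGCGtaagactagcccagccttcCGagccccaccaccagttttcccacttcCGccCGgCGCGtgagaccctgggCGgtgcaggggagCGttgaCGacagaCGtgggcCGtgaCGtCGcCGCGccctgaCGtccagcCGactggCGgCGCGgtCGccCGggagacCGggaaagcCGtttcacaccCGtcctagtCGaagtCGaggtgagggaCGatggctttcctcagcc
S100A14: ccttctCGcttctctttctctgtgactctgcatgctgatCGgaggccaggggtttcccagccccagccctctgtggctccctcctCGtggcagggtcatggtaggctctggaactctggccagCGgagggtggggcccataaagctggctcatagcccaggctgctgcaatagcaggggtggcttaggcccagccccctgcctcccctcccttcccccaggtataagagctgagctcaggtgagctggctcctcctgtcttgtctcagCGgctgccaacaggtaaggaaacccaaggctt
TMUB1: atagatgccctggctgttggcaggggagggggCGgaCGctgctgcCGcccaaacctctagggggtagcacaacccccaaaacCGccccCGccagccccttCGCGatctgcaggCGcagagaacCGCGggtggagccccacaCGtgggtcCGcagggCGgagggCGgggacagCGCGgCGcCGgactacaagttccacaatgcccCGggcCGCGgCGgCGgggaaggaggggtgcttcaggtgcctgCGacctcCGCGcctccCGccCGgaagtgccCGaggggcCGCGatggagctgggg
DDX3X: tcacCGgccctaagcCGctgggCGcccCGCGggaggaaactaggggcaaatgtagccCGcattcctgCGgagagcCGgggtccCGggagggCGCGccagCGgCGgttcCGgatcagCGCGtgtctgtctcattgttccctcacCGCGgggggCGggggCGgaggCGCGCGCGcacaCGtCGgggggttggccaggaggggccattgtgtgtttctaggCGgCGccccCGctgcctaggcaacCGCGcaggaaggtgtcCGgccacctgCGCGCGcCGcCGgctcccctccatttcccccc

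The windows are chr12:108857534-108857833 on the minus strand for SSH1, chr3:156826103-156826402 on the plus strand for LEKR1 and chr1:153616276-153616575 on the minus strand for S100A14. The others are chr7:151083444-151083743 on the minus strand for TMUB1 and chrX:41333058-41333357 on the plus strand for DDX3X. Among the 3 lost starts, SSH1 holds 54 CpG dinucleotides, LEKR1 33 and S100A14 5, so CpG-rich and CpG-poor promoters both occur among strong losses. TMUB1 holds 31 and DDX3X 37.

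How many Tyr1P peaks each library held, and where, was the first comparison. The IAA libraries held 32690 and 30127 peaks, against 38485 and 37472 in the Control libraries. Both IAA values lay below both Control values, with a difference of -6570 between the means (exact permutation p = 0.33, two-sided, the smallest that 2 libraries against 2 can give). The depth estimated from the lists was 7.44 and 7.03 fragments per kb of background with IAA and 6.57 and 7.0 in Control. The part of depth in the length of the lists was not tested. Peaks were also narrower, with medians of 451 and 472 bp with IAA and 488 and 503 bp in Control. Together they covered 17.4 and 16.7 Mb with IAA and 21.4 and 21.5 Mb in Control. Over the kept sites alone, the median site was covered over 609 and 611 bp with IAA and over 675 and 686 bp in Control, again without overlap of the groups.

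Edge peaks made up 40.1% and 42.5% of the IAA lists, against 34.6% and 36.2% of the Control lists. Interior peaks made up 25.9% and 25% with IAA, against 28.4% and 28.0% in Control. Peaks elsewhere made up 26.2% and 24.8% with IAA, against 29.6% and 27.8% in Control. None of these 3 classes overlapped between groups (exact permutation p = 0.33 for each), while flank peaks, at 7.75% and 7.74% with IAA and 7.34% and 8.05% in Control, did. The shares move together by construction, since they sum to the whole list. They also moved with list length: in lists of equal length edge peaks averaged 42.4% with IAA and 40.7% in Control, and interior peaks 24.9% with IAA and 25.5% in Control.

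**Figure D1:**
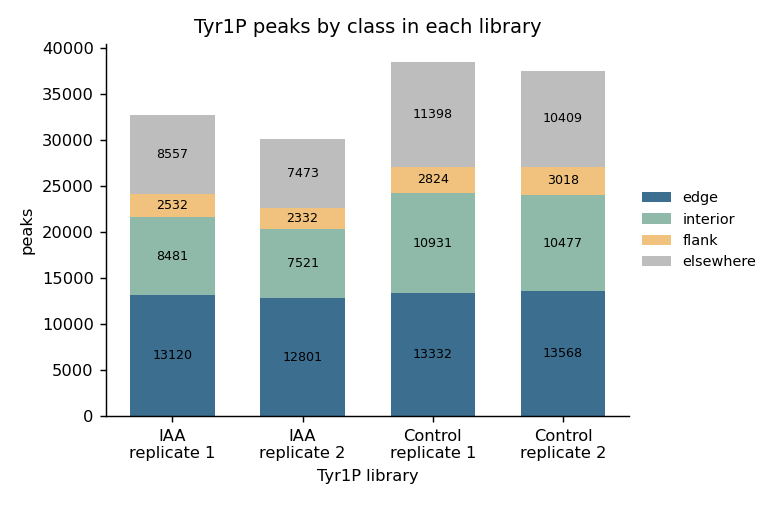
Number of Tyr1P peaks in each library, stacked by class (edge, interior, flank, elsewhere). The count of interior peaks is 8481 and 7521 in the IAA libraries and 10931 and 10477 in the Control libraries, while edge peaks differ less, with 13120 and 12801 against 13332 and 13568.

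The 4 lists merged into 49432 sites. Gained sites were 6.56% of the 24222 sites held by both IAA libraries, and lost sites were 18% of the 31334 held by both Control libraries. Many more sites differed between replicates of 1 group: 5225 sites were in exactly 1 IAA library and no Control library, and 8401 in exactly 1 Control library and no IAA library. A further 949 sites were in both IAA libraries and 1 Control library, and 4020 in both Control libraries and 1 IAA library. Cut to the length of the shortest of the 4 lists, the lists gave 2121 gained and 3233 lost sites, so losses outnumbered gains at equal length too. A call that needs only 1 library of a group is looser, and without IAA replicate 1 or IAA replicate 2 the gained sites numbered 3678 and 4976. Without Control replicate 1 or Control replicate 2 the lost sites numbered 9791 and 10513.

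By class, edge sites were the least often gained or lost. Of edge sites, 208 were gained (1.84% of those in both IAA libraries) and 756 lost (6.15% of those in both Control libraries). Inside genes, 507 were gained (9.04%) and 1977 lost (24.1%). In the flanks of genes, 278 were gained (17.9%) and 531 lost (25.3%). Elsewhere, 597 were gained (10.4%) and 2367 lost (27.1%). Flank sites thus had the highest share of gains of the 4 classes, and edge sites made up 13.1% of gained and 13.4% of lost sites, against 50.5% of kept sites.

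Strength within a list went with these differences. Each peak was ranked by the authors' −log10 q within its own list. For gained sites and gained shares, a site took the lower of its 2 percentiles in the IAA libraries. For lost sites, lost shares and the median of kept sites, it took the lower of the 2 in the Control libraries. The median percentile was 18 for gained sites, 22.3 for lost sites and 69.4 for kept sites. Gained and lost sites were narrow too, with median widths of 436 and 422 bp, against 798 bp for kept sites. Among sites below the 20th percentile, 46.3% of edge, 52.8% of interior, 42.5% of flank and 53.3% of elsewhere sites were lost, so the classes were close to each other at that strength. Between the 60th and 80th percentiles the lost share was 1.07% at edges, 2.2% inside genes, 3.83% in flanks and 4.28% elsewhere. Above the 80th percentile, 1 edge site and 8 elsewhere sites were lost, and no interior or flank site. Gains kept a contrast among weak sites: below the 20th percentile 29.5% of flank sites were gained, against 17.1% of edge, 23.8% of interior and 19.9% of elsewhere sites. Between the 20th and 40th percentiles, these shares were 20.9% in flanks, 7.61% at edges, 11% inside genes and 13.3% elsewhere.

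A list with a peak missing can still hold a neighbour. Of gained sites, 46.4% lay within 5 kb of a kept site, and of lost sites 25.9%. A gained site lay within 5 kb of a lost site in 342 cases (21.5% of gained sites), and 375 lost sites (6.66%) lay that near a gained one. No summit of the other group's libraries lay within 1 kb at 1253 gained and 4634 lost sites, and the sites named below were taken from these. Lost sites were found on every chromosome examined, with 13.0% of the sites in both Control libraries lost on chromosome 18 at the low end and 21.5% on chromosome 12 at the high end. Gained shares ran between 3.57% on chromosome X and 8.65% on chromosome 14.

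Direction relative to the start was read for 15812 of 19974 protein-coding genes, those with a start in the RefSeq promoter table. None of these starts is on chromosome 8, so its 78 gained and 230 lost sites are in no value relative to starts. Between 1 and 5 kb upstream of the nearest listed start, 271 of the 936 sites in both IAA libraries were gained, or 29.0%. At the same distance downstream, 58 of 631 were gained, or 9.19%. The share was 11% between 5 and 20 kb upstream, 9.18% between 5 and 20 kb downstream, 1.10% within 1 kb upstream and 0.677% within 1 kb downstream. In 1 kb steps the highest share was 36.0%, between 2 and 3 kb upstream. Losses showed no such side: 23.2% of sites in both Control libraries were lost 1 to 5 kb upstream and 25.7% at that distance downstream. Within 1 kb of a start, the lost share was 6.05% upstream and 3.24% downstream.

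**Figure D2:**
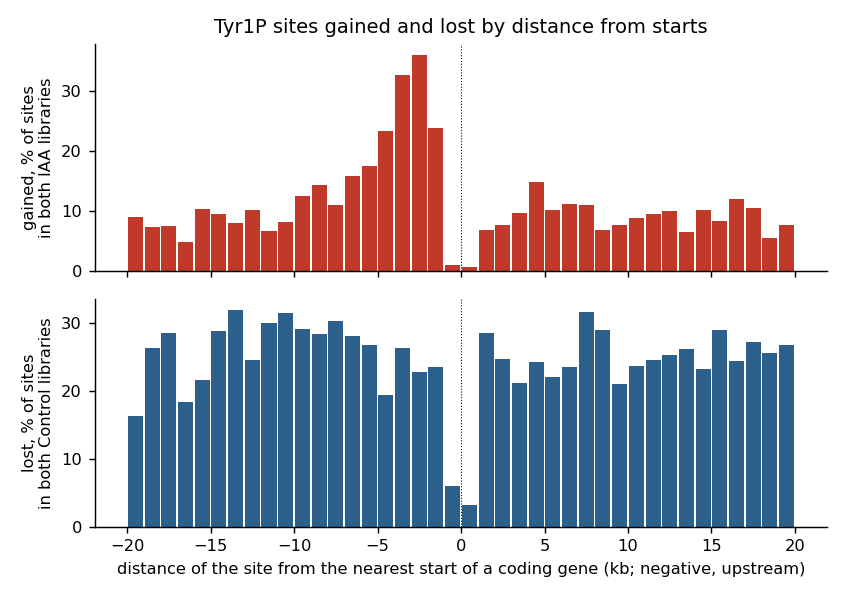
Share of Tyr1P sites gained (upper plot, % of sites in both IAA libraries) and lost (lower plot, % of sites in both Control libraries) in 1 kb steps of distance from the nearest protein-coding start, negative upstream. The gained share peaks at 36.0% between 2 and 3 kb upstream, and both shares are lowest beside the start. Chromosome 8, without listed starts, is not included.

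Sites of like strength were also compared. Below the 20th percentile, 52.0% of sites 1 to 5 kb upstream were gained, against 23.8% of those downstream. Between the 20th and 40th percentiles the shares were 38.0% upstream and 12.3% downstream, and between the 40th and 60th 12.7% and 3.98%. The 271 upstream gains lay at 248 genes, of which 205 had a Tyr1P peak at the start in all 4 libraries, and the median distance was 2480 bp. By class 145 of the 271 were flank sites, 71 interior and 55 edge. By the middle of the site, 41 lay inside the gene whose listed start they preceded, since that start was internal. A further 66 lay inside another protein-coding gene and 164 outside such genes. With only the outermost start of each gene, 244 of 862 sites were gained 1 to 5 kb upstream (28.3%) and 61 of 798 downstream (7.64%). Without IAA replicate 1, 470 sites were gained upstream and 117 downstream, and without IAA replicate 2, 503 and 170.

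Examples chosen after their values were seen, among upstream gains that also had a Pol II peak in both IAA libraries and in neither Control library, are MAP2K7, KEAP1, DDX3X and, from inside the gene, DNAJB4. MAP2K7 (a kinase that activates JNK) gained chr19:7900158-7901983, with the summit 2490 bp upstream of its start and the middle of the site inside another gene. KEAP1 (the adaptor that targets NRF2 for degradation) gained chr19:10505607-10506041, 2501 bp upstream. DDX3X, whose promoter is printed above, gained chrX:41331483-41332037, 1626 bp upstream. DNAJB4 (an HSP40 co-chaperone) gained chr1:78003012-78003610 inside its own body, 1508 bp upstream of an internal listed start. All 4 genes kept an edge peak in all 4 Tyr1P libraries.

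A second view counts summits at starts without calling sites. It uses the same Tyr1P lists, so gained peaks enter it and it is not independent of the gains. Of the 9423 starts with a Tyr1P summit within 1 kb in all 4 libraries, 3025 had no other protein-coding or lncRNA gene within 6 kb upstream and lay in a gene of at least 6 kb. At these isolated starts, a Tyr1P summit lay 1 to 5 kb upstream at 7.17% and 6.68% with IAA, against 5.52% and 5.09% in Control. At the same distance downstream one lay at 4.43% and 4.1% with IAA, against 6.12% and 5.79% in Control. Both IAA libraries were above both Control libraries upstream and below both downstream (exact permutation p = 0.33 for each). The differences of the means were 1.62 and -1.69 percentage points, and in lists of equal length the downstream one was -0.95. These windows and starts were chosen after the gains had been seen.

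Pol II showed the same order upstream at these 3025 starts, with 3.64% and 7.34% with IAA against 2.55% and 3.01% in Control. Downstream, Pol II had 2.31% and 3.40% with IAA against 3.47% and 4.36% in Control. For the domain phosphorylated at serine 2 (Ser2P), the shares were 16.2% and 15.0% upstream with IAA, against 5.42% and 1.55% in Control. Downstream, Ser2P had 13.9% and 12.9% with IAA, against 10.0% and 3.44% in Control. The Ser2P lists differed widely in length, with 99001 and 88503 peaks with IAA and 37013 and 15270 in Control, and a longer list holds more peaks in any window.

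The position of the summit at starts was compared at the same 9423 starts. The median signed distance from the start was 80 and 84 bp downstream with IAA, against 46 and 47 bp in Control. The groups did not overlap, and the means differed by 35.5 bp (exact permutation p = 0.33). Both IAA summits lay downstream of both Control summits at 48.6% of starts and upstream of both at 19.6%. Pol II summits at 7961 starts had medians of 92 and 101 bp with IAA, against 50 and 51 bp in Control. For Ser2P at 6498 starts the medians were 53 and 55 bp with IAA, against 39.5 and 32 bp in Control.

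A limit of 2 fragments per position was assumed, as tool options were not given. The fragment length was taken as the shortest peak of each list. Under that assumption, a summit is less certain where fragments are stacked close to the limit. Peaks at 80% or more of that limit numbered 146 and 206 in the IAA libraries, against 653 and 717 in the Control libraries. At the 8894 starts with no such peak in any of the 4 libraries, the medians were 81 and 85 bp with IAA and 47 and 48 bp in Control, the same difference of 35.5 bp. This limit was set after the summits had been compared.

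**Figure D3:**
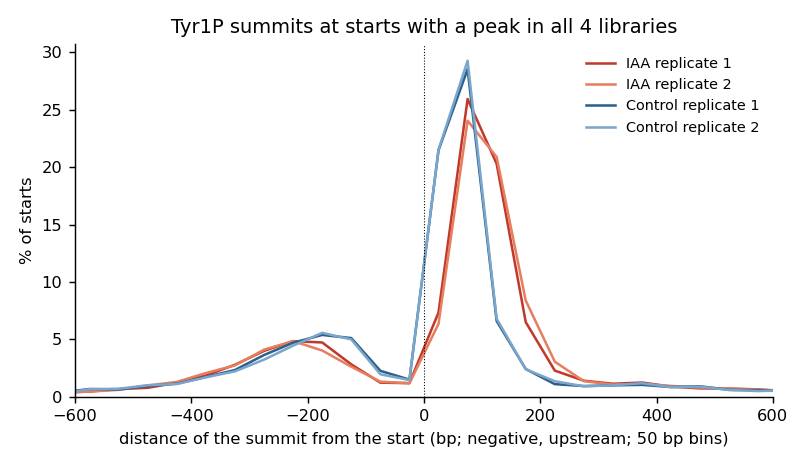
Distance of the Tyr1P summit from the start (bp, negative upstream, 50 bp bins) as a share of the 9423 starts with a summit within 1 kb in all 4 libraries. Each library has a downstream and an upstream group of summits. Both groups lie farther from the start in the IAA libraries than in the Control libraries.

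The starts themselves seldom changed. At protein-coding starts, a Tyr1P summit within 1 kb was gained at 52 of the 9534 starts that had one in both IAA libraries (0.545%). It was lost at 197 of the 9842 that had one in both Control libraries (2.00%). At 8512 starts of lncRNA genes at least 2 kb from a protein-coding end, 25 of 684 were gained (3.65%) and 120 of 876 lost (13.7%). At the other end of the protein-coding genes, 116 of 1191 were gained (9.74%) and 318 of 1549 lost (20.5%). The strength of the sites in these groups was not matched, and its part in the shares was not tested.

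The promoters of gained, lost and kept starts were set side by side as a description, with no test. The median G+C content of the 300 bases was 58.3% for the 52 gained starts, 65.3% for the 197 lost starts and 66.0% for the 9423 kept starts, against 62.7% for all 15812. The median number of CpG dinucleotides was 10.5 at gained, 19 at lost and 27 at kept starts, and 22 over all. The letters GGGCGG, on either strand, were in 32.7% of gained, 67.0% of lost and 74.6% of kept promoters, against 58.3% of all. TATAAA on either strand was in 11.5% of gained, 4.06% of lost and 4.99% of kept promoters, against 9.75% of all. CCAAT, again on either strand, was in 32.7%, 32.0% and 37.3% of gained, lost and kept promoters and 36.4% of all. The AP-1 letters TGACTCA, whose other strand reads TGAGTCA, were in 7.69%, 1.52% and 2.78%, and in 3.62% of all. These shares describe letters in a window, and the 52 gained promoters make theirs coarse.

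The snRNA genes, which encode the RNAs of the spliceosome and of histone mRNA processing, were described next. Integrator cleaves the transcripts of those made by Pol II, and so not of RNU6ATAC, which Pol III transcribes. All 18 sites that overlapped 1 of the 20 listed snRNA genes were kept. Of 13 sites 1 to 5 kb from such a gene, 10 were gained, which is 83.3% of the 12 in both IAA libraries, against 6.56% over all sites. Between 5 and 10 kb away 4 of 16 were gained. Of 2 sites within 1 kb that did not overlap a gene, both were lost, at RNU4ATAC and RNU6ATAC of the minor spliceosome.

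The 10 gained sites lay beside RNU1-2, RNU1-3, RNU1-4, RNU2-1, RNU4-2 and RNU4-1, RNU4ATAC, RNU5B-1 (2 sites), RNU5D-1 and RNVU1-7. The highest-ranked of them was chr2:121532859-121534578, 1850 bp from RNU4ATAC and inside CLASP1. At RNU5D-1 the gained site chr1:44727605-44729593 lay 1476 bp away. RNU1, RNU2 and RNVU1 genes have near-identical copies, so reads there can belong to more than 1 gene. The table of genes gives no strand for snRNAs, so these distances carry no upstream or downstream.

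The nearest summit lay farther from the snRNA genes with IAA as well. The median gap between gene and summit was 484.5 and 463.5 bp with IAA, against 14.5 and 21.5 bp in Control (exact permutation p = 0.33). The gap was larger in both IAA libraries than in both Control libraries at 19 of 20 genes, with RNU2-1 as the exception. RNU2-2 had gaps of 2506 and 2515 bp with IAA, against 46 and 41 bp in Control. RNU5A-1 had 1038 and 1040 bp with IAA, against 1 and 19 bp in Control. At 19 of 20 genes the nearest Control peaks were stacked to at least 80% of the assumed limit, so the exact summit is less certain there. RNU6ATAC, the gene without such a peak, had gaps of 5604 and 5742 bp with IAA, against 565 and 549 bp in Control. In no library did a peak lie on this gene itself, so its gaps run to peaks beside it.

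**Figure D4:**
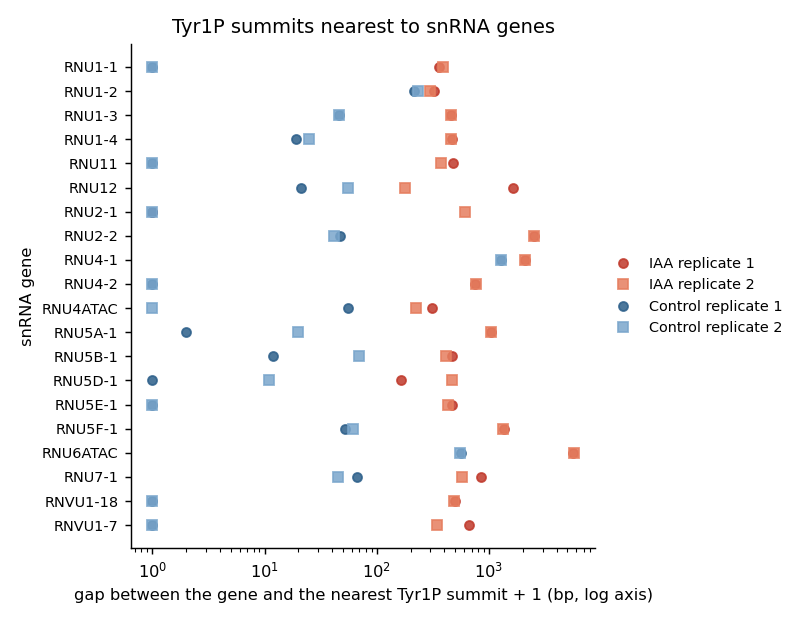
Gap in bp, plus 1, between each of 20 snRNA genes and the nearest Tyr1P summit in each library, on a log axis. At 19 genes both IAA points lie to the right of both Control points, and at RNU2-1 they overlap.

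Other short noncoding genes were set beside these. At 11 small nucleolar and related RNA genes with promoters of their own, the median gap was 661 and 439 bp with IAA, against 68 and 83 bp in Control. It was larger in both IAA libraries at 8 of the 11 and smaller at none. SNORD118 (the U8 RNA) had gaps of 366 and 371 bp with IAA, against 0 and 0 bp in Control. The telomerase RNA gene TERC held the summit inside the gene in all 4, and 2 sites were gained 1105 and 3853 bp from it. They were the 2 gained of the 4 sites in both IAA libraries that lay 1 to 5 kb from these 11 genes (50%), against 6.56% over all sites. The SNORD3 genes among them are near-identical copies. Around 60 replication-dependent histone genes, whose mRNAs end without a poly(A) tail, 32 of 34 overlapping sites were kept. Gained were 0 of the 32 sites in both IAA libraries, against 6.56% over all sites and 1.84% of edge sites. Lost was 1 of the 33 in both Control libraries (3.03%), against 18% over all sites and 6.15% of edge sites. Of 203 sites overlapping tRNA genes, which Pol III transcribes, 132 were kept and 17 gained, which is 10.8% of the 158 in both IAA libraries, against 6.56% over all sites. The 7 lost were 4.64% of the 151 in both Control libraries, against 18% over all sites and 6.15% of edge sites. The strength of these sites was not matched.

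Pol II and Ser2P peaks at the Tyr1P sites are a readout that the calls did not use. At gained sites, a Pol II peak was present at 34.8% and 50.8% with IAA, against 1.57% and 3.14% in Control. At lost sites it was present at 1.33% and 4.16% with IAA, against 21.6% and 35.5% in Control. At kept sites it was present at 64.4% and 77.6% with IAA, against 81.1% and 87.3% in Control. The groups did not overlap in any of the 3 (exact permutation p = 0.33 at gained and at lost sites). In the numbered libraries Pol II thus went the way of Tyr1P at gained and lost sites alike. The unnumbered libraries titled IAA and Control were closer to each other, with 7.17% and 7.92% at gained sites and 60.9% and 66.0% at lost sites. The title and file name of that IAA library name different treatments, as given below with the other unnumbered libraries. With Pol II lists of equal length the means at lost sites were 1.58% with IAA and 16.2% in Control. At the 271 upstream gains Pol II peaks covered 43.2% and 65.7% with IAA, against 1.11% and 1.85% in Control. The 58 gains 1 to 5 kb downstream were alike, with 44.8% and 63.8% with IAA, against 0% and 3.45% in Control.

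A Ser2P peak was present at 42.6% and 43.6% of gained sites with IAA, against 20.9% and 6.48% in Control. At lost sites it was present at 38.0% and 37.0% with IAA, against 34.3% and 12.4% in Control. With the Ser2P lists cut to the length of the shortest, the order at lost sites turned round, with means of 9.16% with IAA and 11.6% in Control. At gained sites it did not, with 19.6% with IAA and 12.7% in Control. The difference at lost sites was 14.1 points as deposited, 3.15 points without Ser2P Control replicate 2 and 25.1 points without Ser2P Control replicate 1.

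**Figure D5:**
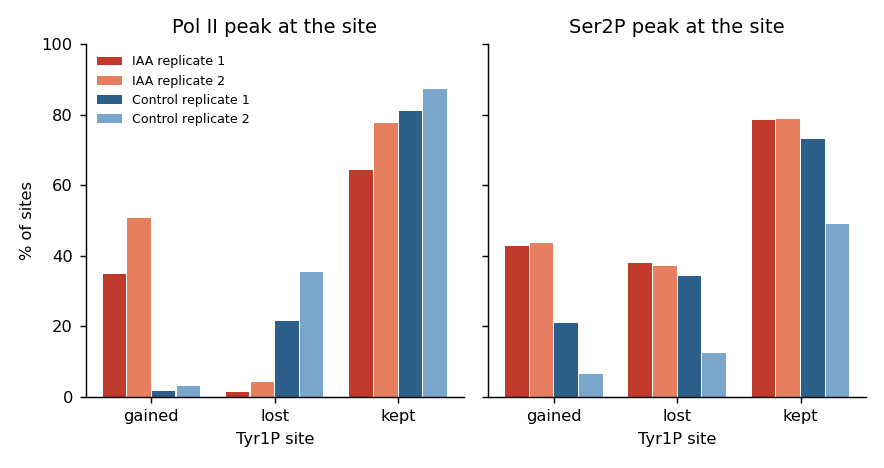
Share of gained, lost and kept Tyr1P sites under a Pol II peak (left) or a Ser2P peak (right) in each numbered library. At lost sites Pol II is at 1.33% and 4.16% with IAA and 21.6% and 35.5% in Control, and at gained sites the order is the opposite.

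The strongest lost sites at gene edges were named by rank. ADCY9 (an adenylyl cyclase) came first, with a site at chr16:4116253-4117040 at the 91.8th percentile and deposited folds of 19.8 and 18.8 in the Control libraries. These folds are the authors' enrichment over local background within each list. The site lay 306 bp from an end of the gene, whose start is not in the promoter table. LEKR1 followed at chr3:156825464-156827046 with folds of 7.94 and 7.64. SEPTIN9 (a septin of the cytoskeleton), SSH1, ISOC2, ING1 (a reader of histone H3 methylated at lysine 4), ABCA2 (a lipid transporter), S100A14 and IRF2BPL completed the 10, with 2 sites at ISOC2. All 10 had a Pol II peak in both Control libraries and in neither IAA library. At LEKR1 a site 4083 bp upstream of the start, chr3:156822065-156822980, was gained, with folds of 2.11 and 2.32 in the IAA libraries. Beside ISOC2 the site chr19:55465000-55466130 near C19orf85 was gained.

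The lost interior sites of highest rank lay in EGFL7 (a secreted factor of blood vessels), RTEL1 (a helicase of telomeres), SSC4D, NR2F6 (an orphan nuclear receptor), KIFC3 (a kinesin) and PLD4. Those in flanks lay by KRT13, SP7, SLC17A7 and SYNM. Far from genes, the strongest lost site was chr2:231666102-231667268, 42125 bp from PTMA and at the 87.9th percentile. It was followed by sites 6036 bp from DNAJB12 and 146363 bp from MYEOV.

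Gained edge sites of highest rank fell into kinds. GOLGA6L4, FRG2B and TPTE belong to families with near-identical copies, and their deposited folds were 8.99 to 11.8 in the IAA libraries. Reads there can come from more than 1 copy, so these genes are uncertain. TWNK (the mitochondrial replicative helicase), TMUB1, GALNS (a lysosomal sulfatase), VAMP2 (a SNARE of synaptic vesicles), LOC124903857, PHLDB2 and S100A3 had lower folds of 2.12 to 3.8. The sites named for TWNK and GALNS also lay 2847 bp upstream of LZTS2 and 2447 bp upstream of APRT. The site at LOC124903857 lay 5418 bp from RNU1-3. At TMUB1 the gained site chr7:151083136-151083868 had its summit 88 bp from the start, and the gene held another edge summit in the Control libraries.

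Gained interior sites of highest rank lay in CLASP1, LMTK3, PDE4DIP, SPACA7, VSTM2B and SYTL3. Those in PDE4DIP, SPACA7 and VSTM2B had deposited folds of 10.3 to 13.3 in the IAA libraries, high like those of GOLGA6L4, FRG2B and TPTE. Whether reads there come from more than 1 copy was not tested. In flanks the 4 genes were ARMH1, PARP2, C19orf85 and SIRT4, with the site by ARMH1 1476 bp from RNU5D-1 and the site by SIRT4 1457 bp from RNU4-2. Of the 3 elsewhere sites, 2 lay nearest to CCDC200 on chromosome 17, the first of them 15815 bp from RNU2-1, and 1 lay 2655 bp from RNU1-4. In all, 6 of the 23 named gained sites and 0 of the 23 named lost sites lay within 20 kb of a listed snRNA gene. The shares of all gained and all lost sites within 20 kb were not counted, so these numbers describe the named sites only. Among all lost sites, 2 lay within 1 kb of such a gene, as given above. A deposited fold of at least 8 in both IAA libraries was reached by 10 of the 1590 gained sites (0.629%). In both Control libraries it was reached by 187 of the 5631 lost sites (3.32%). Each count describes its own lists, and the counts are not compared, since folds are not compared between libraries. The share of kept sites that reach this fold was not counted. Of the 187, 0.535% and 5.88% had a Pol II peak with IAA, against 67.9% and 74.9% in Control.

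Counted by gene, 84 protein-coding genes gained an edge peak (0.712% of 11791 with one in both IAA libraries) and 296 lost theirs (2.42% of 12234 with one in both Control libraries). A call rests on summits, and some peaks still reached the window: at 34 of the 84 gained genes a Control peak did, and at 61 of the 296 lost genes an IAA peak did. No IAA summit lay within 5 kb of 108 of the lost genes. Interior peaks were gained in 170 genes (3.78% of 4500) and lost in 598 (11% of 5431). With lists of equal length 132 edge and 275 interior genes were gained and 218 edge and 308 interior genes were lost. Leaving out 1 library gave 137 to 182 gained and 411 to 487 lost edge genes, and 253 to 551 gained and 852 to 1128 lost interior genes.

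Counted by site, 440 genes held a gained interior site and 1549 a lost one. Of the 1549, 750 kept another interior site, and 139 also held a gained one. The genes with the most lost interior sites were long. PCDH7 (a protocadherin) had 10 gained, 12 lost and 5 kept interior sites over 426432 bp. PHLDB2 had 3 gained, 10 lost and 2 kept. HIVEP3, a zinc finger protein, had 0 gained, 9 lost and 2 kept. VMP1, an autophagy gene, had 5 gained, 5 lost and 1 kept, and CDK6 had 4 gained, 1 lost and 0 kept. These genes were chosen for their counts, which are a description.

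Far from genes, 100 kb windows were ranked by their number of lost sites. The window chr1:8100001-8200000, nearest to ERRFI1 (a feedback inhibitor of the EGF receptor), held 1 gained, 9 lost and 1 kept site. A window near TMEM67, chr8:93800001-93900000, tied with it at 9 lost sites far from genes and held 5 gained, 11 lost and 2 kept sites in all. The window chr20:50200001-50300000 near CEBPB (a bZIP transcription factor) held 0 gained, 8 lost and 1 kept. The window chr12:88900001-89000000 near KITLG (the ligand of KIT) held 2 gained, 8 lost and 1 kept, and a window near TRIB1 also had 8 lost. By gained sites, the window chr3:98900001-99000000 near DCBLD2 was among those with the most, with 5 gained, 5 lost and 1 kept. The windows were chosen for these counts, which carry no test.

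Gene lists of the pathway were read at gene edges beside all genes, of which 0.712% gained and 2.42% lost an edge peak. The lists were drawn up with earlier results of these data known. All 15 Integrator subunit genes, all 12 Pol II subunit genes and all 27 genes of cleavage and termination on the list kept an edge peak in all 4 libraries. Of 48 immediate early genes, which respond to growth factors and serum, 46 kept theirs, 0 gained and 0 lost. Of 28 genes of pausing and elongation 27 kept theirs, and HEXIM2, an inhibitor of P-TEFb, lost it (1 of 28, 3.57%). Of 78 ribosomal protein genes 76 kept theirs and 1 lost it (1.28%). Of 24 p53 target genes 21 kept theirs, and BBC3, the cell death gene PUMA, lost it (1 of the 22 in both Control libraries, 4.55%). No list gained an edge gene. The other lists, on CTD enzymes, complex I, cholesterol synthesis, heat shock, the interferon response, glycolysis and histones, had 0 gained and 0 lost edge genes.

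Interior peaks were gained in 1 gene each of 5 lists, against 3.78% over all genes with one in both IAA libraries. These were SPRED1 (an inhibitor of RAS signalling), 1 of 12 immediate early genes, POLR2E, 1 of 2 Pol II subunit genes, and RPL27A, 1 of 13 ribosomal protein genes. The others were OAS2, 1 of 3 interferon response genes, and ENO2, 1 of 9 glycolysis genes. Lost interior peaks in the pausing and elongation list were at CDC73 (of the PAF1 complex), ELL, ELL2 and NELFB, which is 4 of the 7 genes with one in both Control libraries, against 11% over all genes. In the immediate early list FOSL2, KLF10 and DUSP5 lost theirs, 3 of 14. In the Integrator list INTS7 did, 1 of 3. RBBP6, PPP2CB, RPL14, GADD45A and ENO1 did so in the other pathway lists. The counts are small, and no list was tested.

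Markers of the labelled cell type were read beside those of other types. Of 15 colon epithelium markers 10 held an edge peak in all 4 libraries, against 1 of 15 blood markers, 7 of 15 neuron markers and 0 of 10 fibroblast markers. In both Control libraries 11 of the 15 colon markers had an edge peak, as did 12234 of all 19974 protein-coding genes. The colon count by itself therefore does not identify the cell type. CDH1, CLDN7 and KRT19 lost an interior peak, 3 of the 6 epithelial markers with one in both Control libraries, against 11% over all genes. So did 2 of the 3 blood markers with one there, PTPRC among them. These counts are small and were not tested.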

How the data were processed

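Chromatin immunoprecipitation was followed by sequencing, and the authors deposited 1 peak list per library. MACS2 2.2.7.1 is named in the submitters' processing notes, along with Bowtie2 2.3.4.1, Trim Galore 0.6.6, deepTools 3.5.1 and Picard 2.25.7, for build hg38. Tool options, and whether inputs served as background, were not given in the sources used here. Deposited columns are a score, the fold enrichment at the summit as a ratio, −log10 p and −log10 q. These describe, rank or filter peaks within their own list and were not compared between libraries.

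Chromosomes 1 to 22 and X were analysed, without peaks that overlap any input peak by 1 bp or more (0.584% to 0.762% of a Tyr1P list). Genes and promoters were from RefSeq on GRCh38.p14. Distances use every listed start, and values per gene the outermost. No protein-coding start was listed on chromosome 8, so values relative to starts leave that chromosome out. Intervals were handled in Python 3.11.15 with numpy and pandas. Libraries were compared by two-sided exact permutation, which with 2 against 2 cannot go below p = 0.33. No read totals come with peak lists, so depth was estimated by solving the deposited fold and −log10 p for fragments at the summit and in the background, under a Poisson model, and the lists cannot show weaker binding below the calling threshold. The code that calls sites was run on simulated lists with sites lost and gained by construction, which checks the code and not the calls made here.

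Named sites had no summit of the other group within 1 kb and were the highest by the lower within-list percentile of −log10 q: 10 edge, 6 interior, 4 flank and 3 elsewhere in each direction, plus list genes. The results for 2 list genes are not reported here. The members and gene lists were chosen with earlier results of these data known. Alternatives were a −log10 q of at least 3, lists of equal length, input peaks kept, edge windows of 500 bp and 2 kb, a cover of at least 50% of a site, peaks joined within 5 kb, each library left out, and a replicate block.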

Additional observations from a re-analysis of the deposited data

Results flagged for a closer look

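At lost Tyr1P sites, Pol II and Ser2P moved in opposite directions in the lists as deposited. The share of these sites under a Pol II peak differed by -25.8 percentage points between IAA and Control, and the share under a Ser2P peak by 14.1 points, a difference of -39.9 points. An exact permutation of the group labels inside each antibody, 36 arrangements in all, gave p = 0.0556, which is the lowest value open to it. With lists of equal length the Pol II difference was -14.6 points and the Ser2P difference -2.46 points, so both were negative, and they differed by -12.2 points. The Ser2P difference was 3.15 points without Ser2P Control replicate 2 and 25.1 points without Ser2P Control replicate 1.

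The 4 Pol II libraries without replicate numbers entered no comparison. At gained Tyr1P sites a peak was present at 17.7% in the library titled EGF and 21.3% in the one titled IAA+EGF, both above the 7.92% of the unnumbered Control library. The library titled IAA had 7.17%. At lost sites these libraries had 28.9% for EGF, 28.7% for IAA+EGF and 60.9% for IAA, against 66.0% for Control. The titles and file names of the libraries titled IAA and EGF name different treatments, and the titles are used here. Each is a single library, so no difference among them was tested.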

How the results depend on the processing

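The lists show presence above a calling threshold and no read counts, so a lost peak can be weaker binding that was no longer called, and 2 libraries against 2 allow no p below 0.33. With lists of equal length there were 3233 lost sites, 132 gained edge genes, 275 gained and 308 lost interior genes, and the Ser2P difference at lost sites turned to -2.46 points. The differences that moved by over 1.5 times there were 1.65 points for the edge share, -0.637 for the interior share, -0.946 for isolated starts with a downstream peak, 6.95 for Ser2P at gained sites and -14.6 for Pol II at lost sites. The shorter lists make part of this by construction, and otherwise the cause was not tested. Joining peaks within 5 kb gave 498 gained and 2954 lost domains, since a domain holds several sites. An edge window of 500 bp gave 173 gained edge genes.

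Without 1 library, the gained sites ran between 2053 and 4976, beyond 1.5 times without IAA replicate 1 (3678) and IAA replicate 2 (4976). The lost sites ran between 7312 and 10513, beyond it without Control replicate 1 (9791) and Control replicate 2 (10513). Edge genes gained ran between 137 and 182, beyond it without any library, and lost between 411 and 487, beyond it without IAA replicate 1 (487) and IAA replicate 2 (446). Interior genes gained ran between 253 and 551, beyond it without IAA replicate 1 (379), IAA replicate 2 (551) and Control replicate 1 (264). Those lost ran between 852 and 1128, beyond it without IAA replicate 1 (1024), Control replicate 1 (1128) and Control replicate 2 (1079). Upstream gains ran between 301 and 503 and downstream gains between 71 and 170. Both were beyond 1.5 times without IAA replicate 1 (470 and 117) and IAA replicate 2 (503 and 170). Alternatives for these zones, for snRNA neighbours, for isolated starts and for Pol II and Ser2P at gained sites were chosen after seeing the data. The Ser2P difference at lost sites was 3.15 points without Ser2P Control replicate 2 and 25.1 without Ser2P Control replicate 1. With fewer libraries each call has fewer conditions to meet.

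Of the alternative values other than those for named sites, 149 kept their direction, and counts among them stayed within 1.5 times. Another 27, all counts, moved beyond 1.5 times, and 1 difference was reversed. The summit difference was 32.5 to 37.5 bp without 1 library, and the 23 lost named sites kept their call with a −log10 q of at least 3, with lists of equal length and with input peaks kept, as did the 23 gained ones except 1 with input peaks kept. Same-numbered libraries did not deviate together (correlation -0.0094 over 49432 sites), and the labels give only the number. An exact permutation within same-numbered pairs (the replicate block) left each difference as it was, 35.5 bp for the summit distance and -6570 for the peak number, with p = 0.5, the smallest that 2 pairs allow.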
